A study of Mus musculus with 6 samples.

Results

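Interferon-stimulated genes were followed in the hearts of desmin-null mice with and without cardiac TNF-α. The set was a list of 39 gene symbols, and a gene was measured where a probe set named it alone, with the probe set of the highest mean over the 6 arrays taken for each gene. This gave 37 of the 39 genes, among 18193 genes on the array, and Isg15 and Ifi44 were not analysed here. Myocardium of mice 3 months old was hybridised to one-colour oligonucleotide arrays, 3 from TNFαDes-/- mice, which lack desmin and overexpress TNF-α in the heart, and 3 from Des-/- mice, which lack desmin only. The TNFαDes-/- mice were of a mixed 129SV/C57 background and the Des-/- mice of the 129SV strain, so the transgene and the genetic background cannot be told apart in any comparison below. Both groups lack desmin, no wild-type group was analysed here, and none of the sources used here names the promoter of the transgene. Per the labels, the labelled RNA was a pool of 3 hearts per genotype, and nothing states that the replicate arrays come from different animals. The p-values therefore cover array-to-array spread alone, and that spread may be technical.

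Interferons are secreted when a cell senses foreign or misplaced nucleic acid. Type I interferons signal through JAK kinases to a complex with STAT2 and IRF9 that binds the interferon-stimulated response element (ISRE), while genes of the interferon-γ response often carry the gamma-activated site (GAS). The induced genes encode nucleic acid sensors, antiviral effectors, ubiquitin-like modifiers and guanylate-binding GTPases, and many of them are also induced, directly or through IRF1 and autocrine interferon, by TNF-α.

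The 7 cardiomyocyte markers read between 11.74 and 14.90 on the log2 scale on all 6 arrays, near the top of their range, and array medians lay between 5.02 and 5.08. The engineered genes gave no check of the labels. Tnf read 5.998, 6.09 and 5.73 in TNFαDes-/- hearts, against 5.79, 5.85 and 5.97 in Des-/- hearts, with overlapping groups (limma adjusted p = 0.746). The Des probe sets disagreed in sign (0.39 and -0.40), and their position relative to the deleted part of the gene is not known here. Des-/- replicate 1 stood apart: its 99th percentile was 12.27, against 11.75 and 11.69 on Des-/- replicates 2 and 3 and 12.26 to 12.31 on the TNFαDes-/- arrays. On 2 probe sets of Samhd1 this array also read like the TNFαDes-/- arrays and unlike the other Des-/- arrays, and whether it shares their genetic background was not tested. Each call below was therefore also read after quantile normalization, which gives all arrays the same distribution of values, and with each array left out in turn. The log2 ratio of 3' to 5' Gapdh probe sets, a measure of RNA integrity, also moved with the group, at 0.28 to 0.34 in TNFαDes-/- and -0.05 to 0.01 in Des-/- hearts, and its part in the results was not tested.

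Promoters of 6 genes on which the results turn are shown as reference sequence (RefSeq, GRCm38.p6, the C57BL/6J genome), each 300 bases long with 250 before the start of the gene. Of the 39 genes, 30 had a window in the table. Capitals mark matches to the ISRE core, GAAA followed after any 2 bases by another GAAA (TTTC, any 2 bases and TTTC on the other strand), or to the GAS letters TTCNNNGAA, which read the same on both strands. Ifit1 (chr19:34640639-34640938, plus strand) and Ifit3 (chr19:34583279-34583578, plus strand) are relatives on chromosome 19 that carry the same pair of ISRE matches and gave different results. Bst2 (chr8:71537423-71537722, minus strand) and Igtp (chr11:58199306-58199605, plus strand) carry both motifs and were higher. Irf1 (chr11:53769764-53770063, plus strand) carries a GAS match and no ISRE match and was lower, and Rsad2 (chr12:26456403-26456702, minus strand) is the lower gene with an ISRE match. In Bst2 the GAS match overlaps the first of 2 overlapping ISRE matches.
Ifit1: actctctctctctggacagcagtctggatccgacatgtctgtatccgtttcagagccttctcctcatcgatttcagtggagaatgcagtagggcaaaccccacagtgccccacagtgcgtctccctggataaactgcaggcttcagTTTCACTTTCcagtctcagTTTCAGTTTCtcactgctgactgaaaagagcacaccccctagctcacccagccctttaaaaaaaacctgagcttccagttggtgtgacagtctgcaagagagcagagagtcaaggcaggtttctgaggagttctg
Ifit3: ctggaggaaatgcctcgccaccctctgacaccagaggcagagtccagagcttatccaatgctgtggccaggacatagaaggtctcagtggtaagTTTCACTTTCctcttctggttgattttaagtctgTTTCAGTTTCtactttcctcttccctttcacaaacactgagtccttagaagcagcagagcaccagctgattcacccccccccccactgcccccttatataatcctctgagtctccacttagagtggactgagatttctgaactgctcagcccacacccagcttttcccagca
Bst2: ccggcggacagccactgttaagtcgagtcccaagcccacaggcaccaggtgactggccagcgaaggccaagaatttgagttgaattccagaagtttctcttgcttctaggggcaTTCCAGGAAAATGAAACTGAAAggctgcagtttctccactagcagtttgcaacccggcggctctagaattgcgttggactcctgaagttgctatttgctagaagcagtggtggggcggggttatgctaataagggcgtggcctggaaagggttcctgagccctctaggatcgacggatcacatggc
Igtp: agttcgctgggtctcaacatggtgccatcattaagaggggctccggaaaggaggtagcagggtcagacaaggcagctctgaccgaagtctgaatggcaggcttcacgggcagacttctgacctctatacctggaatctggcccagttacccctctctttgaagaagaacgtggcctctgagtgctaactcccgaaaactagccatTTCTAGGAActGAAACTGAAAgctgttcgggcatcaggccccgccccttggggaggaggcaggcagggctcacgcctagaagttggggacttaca
Irf1: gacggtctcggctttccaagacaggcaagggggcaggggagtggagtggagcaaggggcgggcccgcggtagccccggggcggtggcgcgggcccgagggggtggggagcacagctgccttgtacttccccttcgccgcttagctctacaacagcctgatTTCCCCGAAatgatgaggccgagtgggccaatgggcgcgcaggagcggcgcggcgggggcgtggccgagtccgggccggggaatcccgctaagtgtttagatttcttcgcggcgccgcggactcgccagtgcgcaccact
Rsad2: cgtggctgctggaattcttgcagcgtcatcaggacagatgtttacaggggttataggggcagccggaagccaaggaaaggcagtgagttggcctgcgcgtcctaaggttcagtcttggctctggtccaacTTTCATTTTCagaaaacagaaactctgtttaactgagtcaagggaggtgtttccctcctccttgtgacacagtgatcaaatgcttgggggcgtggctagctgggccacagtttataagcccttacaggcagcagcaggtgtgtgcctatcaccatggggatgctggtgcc

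An ISRE match was present in 16 of 36 windows of listed genes (44.4%), against 3.44% of all 32851 windows, and a GAS match in 10 of 36 (27.8%), against 8.3%. By gene, an ISRE match was found in 4 of 7 genes that were higher in TNFαDes-/- hearts (Ifit1, Bst2, Ifitm2 and Igtp), in 1 of 6 that were lower (Rsad2) and in 10 of 15 that did not pass the test. The GAS letters were found in 4 of 7 higher genes, in 2 of 6 lower genes (Irf1 and Ifi202b) and in 4 of 15 that did not pass. A match describes letters in the reference genome, not a bound site, and the sequence of the mice studied here was not used.

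The interferon-stimulated genes did not move as 1 block. Of the 37 measured genes, 9 were higher and 6 lower in TNFαDes-/- than in Des-/- hearts, and 22 did not pass the test (limma, Benjamini-Hochberg adjusted p below 0.05 over all 18193 genes). Over all genes 21.3% were called, 15.2% higher and 6.05% lower, against 40.5% of the listed genes. Dim genes were rarer in the list than on the array, which bears on these shares. Among the 11753 genes left by a filter on dim probe sets 3829 were called, against 9 higher and 5 lower of 32 listed genes. The called shares of listed and of all genes lay closer together there than without the filter. The groups did not overlap in 17 of the 37 genes, against 38% of all genes, with TNFαDes-/- higher in 10 (24.3% of all genes) and lower in 7 (13.7%). The median log2 change, TNFαDes-/- minus Des-/-, was 0.07 over the listed genes and 0.04 over all genes, 0.05 and -0.0038 after quantile normalization. After quantile normalization the same 9 genes were higher (12% of all genes) and the same 6 were lower together with Gbp2 (10.4% of all genes), and no gene changed its direction among those called. Without Des-/- replicate 1, 10 were higher and 7 lower, in a fit that called 5814 of all 18193 genes, against 3869 with all arrays. The measured genes that rose were Ifit1, Ifit2, Ifitm2, Bst2, Usp18, Igtp, Ifi35, Irf7 and Rtp4, and those that fell were Ifi202b, Xaf1, Oasl2, Irf1, Herc6 and Rsad2.

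**Figure D1:**
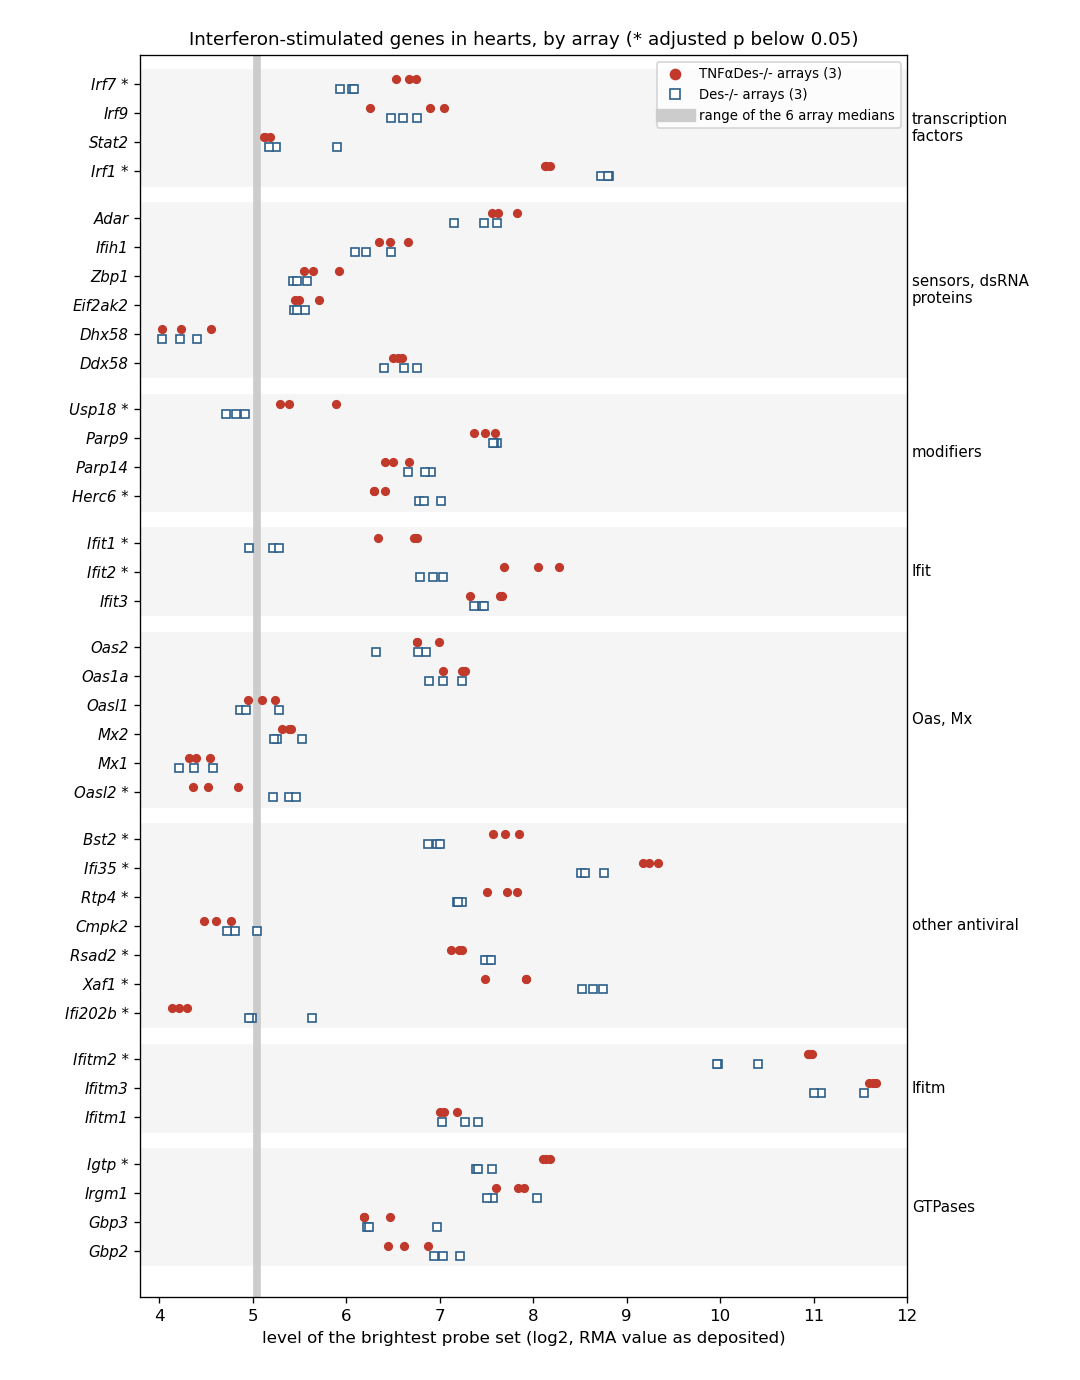
Level of the 37 measured interferon-stimulated genes on each array (log2 RMA value of the brightest probe set), with TNFαDes-/- arrays as filled circles above Des-/- arrays as open squares, grouped by role. The grey band spans the 6 array medians (5.02 to 5.08), near or below which a level is not shown to be above background, and an asterisk marks the 15 genes past the test.

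Of the 4 transcription factors in the list, 1 rose and 1 fell. Irf7, which amplifies type I interferon production, read 6.75, 6.67 and 6.53 in TNFαDes-/- hearts, against 5.93, 6.06 and 6.09 in Des-/- hearts. All TNFαDes-/- arrays were above all Des-/- arrays, a 1.54-fold difference (log2 change 0.62 ± 0.10 SE, limma adjusted p = 0.00404). Irf1, a factor that both interferon-γ and TNF-α induce, went the other way with little spread, at 8.18, 8.13 and 8.14 in TNFαDes-/- hearts and 8.81, 8.72 and 8.80 in Des-/- hearts. It was 1.54-fold lower (log2 change -0.63 ± 0.09, adjusted p = 0.0021), or -0.81 after quantile normalization. The ISRE-binding factors Irf9 and Stat2 did not pass. Irf9 averaged 6.73 ± 0.42 in TNFαDes-/- and 6.62 ± 0.14 in Des-/- hearts (SD, n = 3 each), with TNFαDes-/- replicate 2 (6.26) below every other array. Stat2 read 5.19, 5.13 and 5.12 in TNFαDes-/- hearts, close to Des-/- replicates 2 and 3 (5.25 and 5.18), while Des-/- replicate 1 stood at 5.91.

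On the brightest probe set of each, none of the 6 sensors and proteins of double-stranded RNA passed the test (limma adjusted p 0.247 to 0.852 over all genes), and their groups overlapped in every case. These were the RNA helicases Ifih1 (MDA5, log2 change 0.23 ± 0.13 SE), Ddx58 (RIG-I, -0.04 ± 0.11) and Dhx58 (LGP2, 0.05 ± 0.16), the kinase Eif2ak2 (PKR, 0.06 ± 0.11), the Z-form nucleic acid sensor Zbp1 (0.21 ± 0.12) and the RNA editor Adar (0.25 ± 0.14). Dhx58 lay below the median on all 6 arrays, so a change in it could not be read here. The other Adar probe sets gave -0.20 and -0.14, and the mean of all its probe sets was -0.03 (limma adjusted p = 0.842). For Eif2ak2 a dimmer probe set gave another answer. It read 5.61, 5.56 and 5.58 in TNFαDes-/- hearts, against 4.75, 4.80 and 4.78 in Des-/- hearts (0.81 ± 0.09, adjusted p = 0.00101 over all probe sets). Its Des-/- values lie below the array medians and its 2 other probe sets gave 0.06 and 0.04, while the mean of the 3 passed (0.30, adjusted p = 0.0283). The probe sets disagree, so no direction is given for the gene.

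The 4 measured genes that modify proteins split as well. Usp18, the protease that removes ISG15 and damps signalling at the interferon receptor, read 5.89, 5.39 and 5.29 in TNFαDes-/- hearts, against 4.92, 4.82 and 4.71 in Des-/- hearts. The groups did not overlap (log2 change 0.70 ± 0.16 SE, limma adjusted p = 0.0153), but the Des-/- level lies below the array medians and no fold is given. The call was lost without Des-/- replicate 2 (0.71, adjusted p = 0.0503) or Des-/- replicate 3 (0.65, adjusted p = 0.0585). Herc6, the main ISG15 ligase of the mouse, read 6.29, 6.30 and 6.41 in TNFαDes-/- hearts and 6.78, 7.01 and 6.83 in Des-/- hearts, 1.45-fold lower (-0.54 ± 0.10, adjusted p = 0.00764). Its 3 other probe sets, all below the median on all arrays, gave -0.06, 0.36 and 0.04, and the mean of its probe sets was -0.05 (adjusted p = 0.741). The ADP-ribosyltransferase genes Parp9 (-0.11 ± 0.10) and Parp14 (-0.28 ± 0.11) did not pass, though Parp14 did without Des-/- replicate 1 (-0.35, adjusted p = 0.0386).

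The Ifit genes, whose products bind foreign RNA at its 5' end, held the 2 largest rises of the set. Ifit1 read 6.76, 6.34 and 6.72 in TNFαDes-/- hearts, against 4.96, 5.22 and 5.28 in Des-/- hearts. The groups were far apart (log2 change 1.46 ± 0.14 SE, limma adjusted p = 0.00035), which made Ifit1 the 107th largest rise of 18193 genes, and since 1 Des-/- array lay below its median the fold is uncertain. Ifit2 read 8.05, 7.69 and 8.28 in TNFαDes-/- hearts and 6.93, 6.79 and 7.03 in Des-/- hearts, 2.13-fold higher (1.09 ± 0.15, adjusted p = 0.00192). Ifit3, which lies between them on chromosome 19, did not follow. It read 7.65, 7.33 and 7.67 in TNFαDes-/- hearts, against 7.46, 7.48 and 7.37 in Des-/- hearts, with overlapping groups (0.11 ± 0.12, adjusted p = 0.549) and -0.02 after quantile normalization. TNFαDes-/- replicate 2 was the lowest of its group in all 3 Ifit genes, and in 40.5% of the listed genes and 39.5% of all genes.

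The oligoadenylate synthetases, which activate RNase L, and the Mx dynamin-like GTPases showed 1 call among 6 genes. Oas1a (0.13 ± 0.12 SE) and Oas2 (0.19 ± 0.15) did not pass, at levels of 6.32 to 7.27 on the log2 scale. Oasl1 (0.07 ± 0.14) and Mx2 (0.03 ± 0.11) read near the array medians and did not pass. Mx1, which carries inactivating deletions in most inbred laboratory mice, lay below the median on all 6 arrays, between 4.21 and 4.58. Oasl2 read 4.36, 4.53 and 4.85 in TNFαDes-/- hearts, against 5.39, 5.46 and 5.22 in Des-/- hearts. It was lower with no overlap (-0.78 ± 0.14, limma adjusted p = 0.00574), and since each TNFαDes-/- value lies below its array median no fold is given.

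Among the other antiviral genes, 3 rose and 3 fell of 7 measured. Bst2, which encodes tetherin, the membrane protein that holds budding virus at the cell surface, read 7.70, 7.57 and 7.85 in TNFαDes-/- hearts, against 6.88, 6.97 and 7.01 in Des-/- hearts. It was 1.69-fold higher (log2 change 0.75 ± 0.11 SE, limma adjusted p = 0.00186). Ifi35 read 9.24, 9.17 and 9.33 in TNFαDes-/- hearts and 8.76, 8.52 and 8.55 in Des-/- hearts, 1.56-fold higher (0.64 ± 0.11, adjusted p = 0.00408), and its 3 probe sets were all above 0, though the one without an _s_at or _x_at name, which mark probe sets open to cross-hybridisation, did not pass (0.33, adjusted p = 0.0772). Rtp4, a Golgi chaperone with antiviral activity, read 7.72, 7.51 and 7.83 in TNFαDes-/- hearts, against 7.18, 7.24 and 7.20 in Des-/- hearts (0.48 ± 0.11, adjusted p = 0.0156). The mean of both Rtp4 probe sets did not pass (0.25, adjusted p = 0.0827). The call was also lost without Des-/- replicate 2 (0.49, adjusted p = 0.0518), Des-/- replicate 3 (0.48, adjusted p = 0.058), TNFαDes-/- replicate 1 (0.46, adjusted p = 0.0684) or TNFαDes-/- replicate 3 (0.41, adjusted p = 0.0671).

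Xaf1, an antagonist of the apoptosis inhibitor XIAP, read 7.92, 7.49 and 7.93 in TNFαDes-/- hearts, against 8.75, 8.52 and 8.64 in Des-/- hearts. Every TNFαDes-/- array was below every Des-/- array, 1.81-fold lower (log2 change -0.86 ± 0.14 SE, limma adjusted p = 0.00368). Its other probe set, also above the array medians, gave 0.33 ± 0.13 (adjusted p = 0.129), and the mean of both did not pass (-0.26, adjusted p = 0.055), so the fall rests on the brighter one. Rsad2, which encodes viperin, read 7.12, 7.24 and 7.20 in TNFαDes-/- hearts and 7.52, 7.49 and 7.55 in Des-/- hearts, 1.26-fold lower (-0.33 ± 0.09, adjusted p = 0.0337). This small fall was lost without Des-/- replicate 2 (-0.35, adjusted p = 0.0953), Des-/- replicate 3 (-0.32, adjusted p = 0.123), TNFαDes-/- replicate 1 (-0.30, adjusted p = 0.129) or TNFαDes-/- replicate 3 (-0.34, adjusted p = 0.0915). Cmpk2, a mitochondrial nucleotide kinase gene next to Rsad2 on chromosome 12, averaged 4.62 ± 0.15 in TNFαDes-/- and 4.86 ± 0.17 in Des-/- hearts (SD, n = 3 each), below the median of each array. Ifi202b, a DNA-binding HIN-200 protein gene whose level is known to differ between inbred strains, read 4.22, 4.14 and 4.30 in TNFαDes-/- hearts, against 5.63, 4.998 and 4.96 in Des-/- hearts. The groups did not overlap (-0.98 ± 0.18, adjusted p = 0.00574). All TNFαDes-/- values and 2 of the 3 Des-/- values lie below the array medians, and the probe set is of a kind shared by related genes, so no fold is given.

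Of the 3 Ifitm genes, whose membrane proteins block viral fusion, 1 rose. Ifitm2 read 10.94, 10.95 and 10.98 in TNFαDes-/- hearts, against 10.41, 9.98 and 9.97 in Des-/- hearts, 1.79-fold higher (log2 change 0.84 ± 0.13 SE, limma adjusted p = 0.00305). The change was 0.52 after quantile normalization (adjusted p = 0.00216). Ifitm3 read 11.66, 11.59 and 11.63 in TNFαDes-/- hearts and 11.54, 11.08 and 11.01 in Des-/- hearts. It did not pass (0.42 ± 0.14, adjusted p = 0.0714), passed without Des-/- replicate 1 (0.58, adjusted p = 0.0024) and stood at 0.06 after quantile normalization, so its result turns on that array and on the scaling. Ifitm1 did not pass (-0.16 ± 0.12, adjusted p = 0.42). The Ifitm genes are close relatives, and whether their probe sets share target RNA was not tested.

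Of the 4 GTPases of the interferon-γ response 1 rose. Igtp, an immunity-related GTPase, read 8.10, 8.14 and 8.18 in TNFαDes-/- hearts, against 7.39, 7.41 and 7.56 in Des-/- hearts. It was 1.61-fold higher with little spread (log2 change 0.68 ± 0.10 SE, limma adjusted p = 0.00184). Its relative Irgm1 overlapped between the groups (0.08 ± 0.16, adjusted p = 0.781). The guanylate-binding protein gene Gbp2 read 6.62, 6.45 and 6.87 in TNFαDes-/- hearts and 7.22, 7.04 and 6.94 in Des-/- hearts. Its groups did not overlap but it missed the threshold as deposited (-0.42 ± 0.13, adjusted p = 0.0568) and passed after quantile normalization (-0.50, adjusted p = 0.0102) and without TNFαDes-/- replicate 3 (-0.53, adjusted p = 0.0443). The second Gbp2 probe set gave -0.66 ± 0.19 (adjusted p = 0.0478 over all probe sets). Gbp3 did not pass (-0.19 ± 0.20), with Des-/- replicate 1 (6.97) above Des-/- replicates 2 and 3 (6.22 and 6.24).

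**Figure D2:**
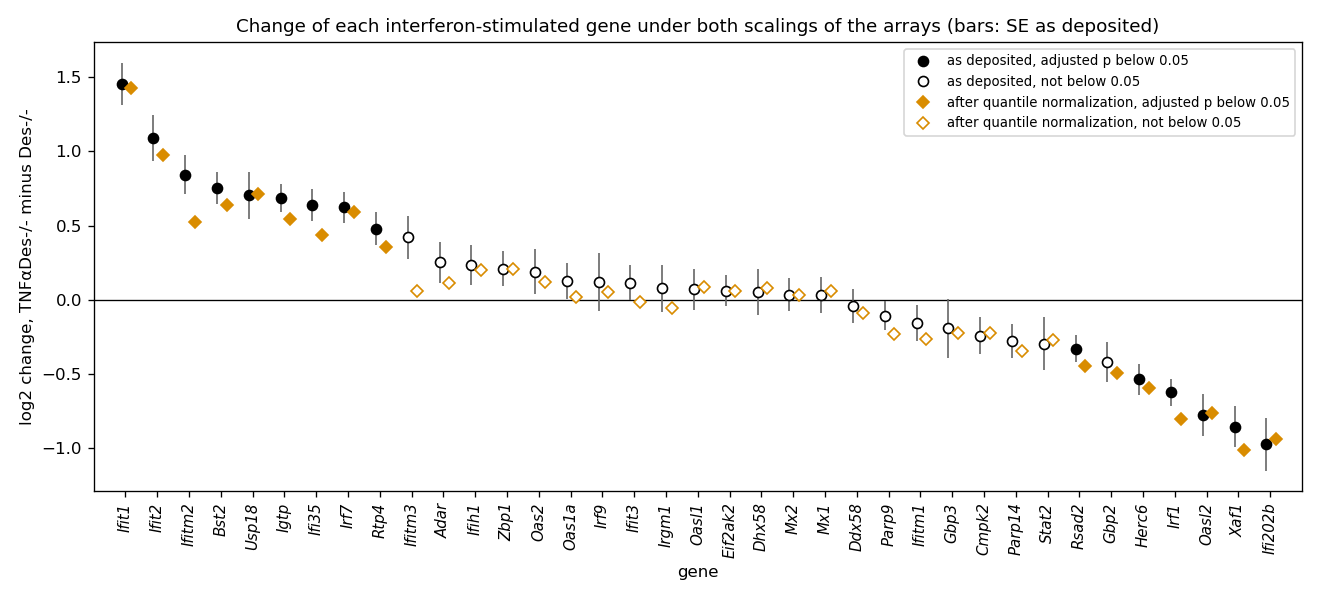
Log2 change (TNFαDes-/- minus Des-/-, 3 arrays each) of the 37 measured genes, as deposited (circles with SE bars) and after quantile normalization (diamonds), with filled symbols where the adjusted p is below 0.05. The 9 higher and 6 lower genes kept their calls under both scalings, Gbp2 was called after quantile normalization only, and Ifitm3 moved to 0.06.

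For 14 of the 37 genes more than 1 probe set named the gene alone. The probe sets of Ifi35 and of Gbp2 shared a sign, as did those of Rsad2 (-0.33, -0.10 and -0.40). Those of Parp14, Stat2 and Zbp1 also shared a sign, with none past the test. For Xaf1, Eif2ak2, Herc6 and Rtp4 a probe set past the test stood beside one of the opposite sign or near 0, though for Herc6 and Rtp4 the others lay below the median on all arrays. Those of Adar (0.25, -0.20 and -0.14), Cmpk2 (-0.24 and 0.34), Ddx58 and Dhx58 differed in sign with none past the test. Probe sequences were not used here, so whether these probe sets read different transcripts, or bases that differ between 129SV and C57, was not tested.

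**Figure D3:**
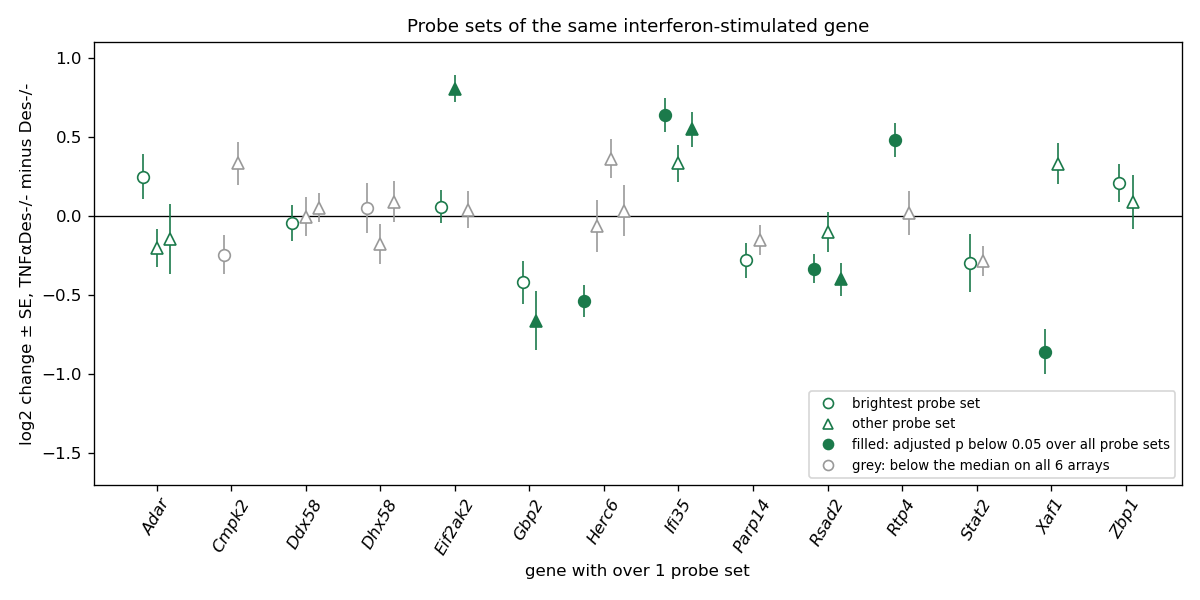
Log2 change ± SE (TNFαDes-/- minus Des-/-) of each probe set of the 14 genes with more than 1, from a fit over all 45037 probe sets. Circles are the brightest probe set and triangles the others, filled symbols have an adjusted p below 0.05 and grey ones lie below the median on all 6 arrays; Xaf1 has probe sets at -0.86 and 0.33 and Eif2ak2 at 0.06, 0.81 and 0.04.

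Upstream of these genes, no measured interferon or receptor gene passed the test with all 6 arrays as deposited. The 5 interferon genes measured (Ifnb1, Ifna1, Ifna2, Ifna4 and Ifng) read between 3.34 and 5.30 on the 6 arrays, and Ifna2, Ifna4 and Ifng lay below the median on all, where a difference could not be read. Ifnb1 read 4.38, 4.87 and 4.48 in TNFαDes-/- hearts, against 5.26, 5.19 and 4.72 in Des-/- hearts (log2 change -0.48 ± 0.18 SE, limma adjusted p = 0.0896), and passed in 2 of the 6 fits that each left out 1 array. Of 13 measured receptor and signalling genes 0 passed over all genes (limma, median -0.02), and 2 fell after quantile normalization, the receptor chain Il10rb (-0.35, adjusted p = 0.0391) and the kinase Jak2 (-0.39, adjusted p = 0.0252). The type I receptor chains Ifnar1 (-0.17 ± 0.11) and Ifnar2 (0.29 ± 0.12) and the interferon-γ receptor chains Ifngr1 (0.27 ± 0.13) and Ifngr2 (-0.02 ± 0.14) did not pass. Stat3 missed the threshold (0.67 ± 0.21, adjusted p = 0.0572).

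Of 12 measured genes of nucleic acid sensing, 3 rose, against 15.2% of all genes, and 3 fell, against 6.05%, with a median of -0.02, and 1 rose and 3 fell after quantile normalization. Mavs, the mitochondrial adaptor of the RNA helicases, read 7.81, 7.60 and 7.79 in TNFαDes-/- hearts, against 8.48, 8.39 and 8.36 in Des-/- hearts, 1.60-fold lower (log2 change -0.68 ± 0.10 SE, limma adjusted p = 0.00257). Ikbke, a kinase below Mavs, also fell (-0.57 ± 0.12, adjusted p = 0.011), but all its TNFαDes-/- values and 2 of its 3 Des-/- values lie below the array medians, where a level is not shown to exceed background. Mavs passed in all 6 fits that each left out 1 array. The factor Irf3 (0.47 ± 0.10), the kinase Tbk1 (0.52 ± 0.14) and the Toll receptor adaptor Ticam1 (0.36 ± 0.11) rose, and the myeloid factor Irf8 fell (-0.37 ± 0.10). These 4 calls were less firm. Irf3 passed in 4 of the 6 fits, Tbk1 in 2, Irf8 in 1 and Ticam1 in 0, and Irf3 and Ticam1 did not pass after quantile normalization (0.31, adjusted p = 0.0783, and 0.23, adjusted p = 0.2). With the mean of all probe sets, Irf3 (0.30, limma adjusted p = 0.0633) and Tbk1 (0.30, adjusted p = 0.292) did not pass. Irf8 (-0.44, adjusted p = 0.0286) and Mavs (-0.54, adjusted p = 0.035) passed on that mean.

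Another 40 interferon-stimulated genes outside the list of 39 were looked up. Of the 32 measured, 4 rose, 2 fell and 26 did not pass (median -0.08), a called share near that of all genes (21.3%). Ifi27l2a read 10.06, 9.99 and 10.02 in TNFαDes-/- hearts, against 9.33, 8.94 and 8.88 in Des-/- hearts (log2 change 0.98 ± 0.13 SE, limma adjusted p = 0.00144), and the secreted glycoprotein gene Lgals3bp rose by 0.75 ± 0.10 (adjusted p = 0.00122). Irgm2, a GTPase related to Igtp, rose by 0.52 ± 0.11 (adjusted p = 0.0119; up to 0.0527 without 1 array), as did Nmi, the binding partner of the Ifi35 protein (0.50 ± 0.14, adjusted p = 0.0382; up to 0.141). Samd9l fell (-0.42 ± 0.09, adjusted p = 0.0152; up to 0.0736), and Ifi204, a relative of Ifi202b below the array medians throughout, was at -0.57 ± 0.17 (adjusted p = 0.0415; up to 0.101). After quantile normalization 4 of the 32 were higher and 5 lower.

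**Figure D4:**
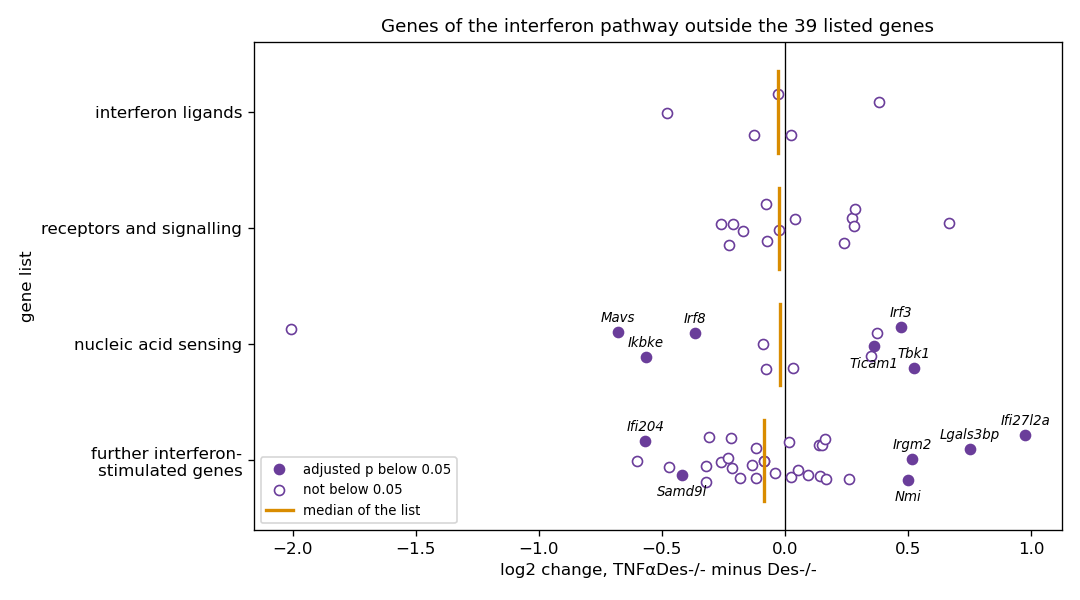
Log2 change (TNFαDes-/- minus Des-/-) of pathway genes outside the list of 39, with 5 interferon ligands, 13 receptor and signalling genes, 12 sensing genes and 32 further interferon-stimulated genes. Each circle is a gene, filled and named where the adjusted p is below 0.05, and the vertical bars are list medians (-0.03, -0.02, -0.02 and -0.08); the unfilled circle near -2.0 is Samhd1.

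Interferon-stimulated genes are expressed by immune and endothelial cells as well as by cardiomyocytes, and in whole hearts fewer cells of a type and less RNA per cell cannot be told apart. Over all genes 15.2% rose and 6.05% fell. Of 10 macrophage markers 6 rose and 1, Cd68, fell (-1.48 ± 0.13 SE, limma adjusted p = 2e-04), and their summed linear level was 12000 to 12400 in TNFαDes-/- hearts, against 7780 to 10600 in Des-/- hearts. Among these calls C1qa and Cd68 passed in all 6 fits that each left out 1 array. The rises of Adgre1, C1qb, C1qc, Csf1r and Mrc1 passed in 2 each. After quantile normalization 6 macrophage markers were higher and 1 lower. Of 4 measured monocyte and neutrophil markers 2 rose, S100a8 (0.86 ± 0.09) and S100a9 (0.54 ± 0.10), and Ccr2 fell (-0.37 ± 0.11). S100a9 lay below the median on all arrays and S100a8 on all 3 Des-/- arrays. S100a8 and S100a9 passed in all 6 fits that each left out 1 array, and Ccr2 in 1. The sums of these markers were 211 to 218 in TNFαDes-/- and 211 to 243 in Des-/- hearts. Of 5 endothelial markers 2 fell, Tek (-0.49 ± 0.11) and Pecam1 (-0.42 ± 0.11), with sums of 1670 to 1710 in TNFαDes-/- and 1860 to 2460 in Des-/- hearts. Tek passed in 5 of the 6 fits that each left out 1 array and Pecam1 in 3. After quantile normalization 3 endothelial markers were lower, with a median log2 change of -0.48, against -0.31 as deposited. Of 5 fibroblast markers Dcn rose (0.93 ± 0.15), with sums of 21200 to 21500 in TNFαDes-/- and 13500 to 21300 in Des-/- hearts. After quantile normalization 1 fibroblast marker was higher and 3 were lower, with a median log2 change of -0.28, against 0.04 as deposited. None of the 7 cardiomyocyte markers passed, with sums of 149000 to 153000 in TNFαDes-/- and 98500 to 158000 in Des-/- hearts. Their median log2 change was 0.40 as deposited and -0.09 after quantile normalization, when 2 were lower. All sums here use values as deposited, in which the 99th percentile of Des-/- replicates 2 and 3 was lower than on the other arrays. Sums of bright genes therefore also carry that difference in scale. Of 8 lymphocyte markers 0 passed over all genes, with 4 below the median on all arrays, and sums of 295 to 336 in TNFαDes-/- and 272 to 336 in Des-/- hearts. Of 5 markers of plasmacytoid dendritic cells, which secrete type I interferon, 1 rose (Bst2, also a listed gene) and 1 fell (Irf8), with sums of 928 to 1060 in TNFαDes-/- and 790 to 1030 in Des-/- hearts. These sums are mostly the level of Tcf4, which averaged 9.37 in TNFαDes-/- and 9.15 in Des-/- hearts. The defining marker of these cells, Siglech, read 5.03 in TNFαDes-/- and 5.02 in Des-/- hearts, near the array medians, and Ly6d stood at -0.34 ± 0.11 (limma adjusted p = 0.0604). The part of these cell types in the changes of the interferon-stimulated genes was not tested.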

How the data were processed

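RNA of heart was measured on 6 one-colour arrays. The deposited log2 values were made by the authors with RMA (no version), per the submitters' processing notes. The sources used here do not say whether quantile normalization spanned all arrays. Of 45101 probe sets, 64 are controls, 34945 have 1 gene symbol in the platform annotation, 932 several and 9160 none, and only the first kind named a gene.

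lmFit and eBayes of limma 3.58.1 (R 4.3.3) tested TNFαDes-/- minus Des-/-, 1 probe set per gene, with Benjamini-Hochberg adjustment over 18193 genes, a threshold of 0.05 and no filter on dim probe sets. A level below its array's median was taken as not shown to be above background. The number of arrays limits the precision. On simulated data for this comparison (18193 genes, 50 changed at each size), the fit found 22% of log2 changes of 0.5, 88% of those of 1, 96% of those of 2 and 100% of those of 3. The simulation changed far fewer genes than were called here and had no shift of whole arrays, so these shares may not hold for these data.

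The listed genes, role groups, pathway lists, marker lists and motifs were chosen with earlier results of these data known. All measured genes of the list are named, and pathway genes where they passed or are ligands or receptors. Stat3, Il10rb, Jak2, Siglech, Ly6d, Cd68, S100a8, S100a9, Ccr2 and Dcn were named after their values were seen. The same holds for Tcf4, C1qa, Adgre1, C1qb, C1qc, Csf1r, Mrc1, Tek and Pecam1. Promoters are RefSeq sequence of GRCm38.p6. Alternatives covered the variance model, array weights, a replicate block, dim probe sets, the choice of probe set, 4 scalings, each array left out, and treat. Figures were drawn with matplotlib 3.10.9.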

Additional observations from a re-analysis of the deposited data

How the results depend on the processing

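Of 690 values of single listed genes under 19 alternatives, 0 reversed a call, 22 (of 7 genes) lost one and 18 (of 6 genes) gained one. Irf1, Ifit1, Ifit2, Oasl2, Bst2, Ifi202b, Ifitm2 and Igtp passed in every alternative that tested them, but Irf1, Oasl2 and Ifi202b were not tested where probe sets with _a_at, _s_at or _x_at names were left out, nor Oasl2 and Ifi202b under the filter on dim probe sets. Treat at 1.2-fold called 5 of the listed genes higher and 1222 genes in all, against 9 and 3869. Array weights called 8414 genes in all, with 11 listed genes higher and 9 lower, gaining Gbp2, Ifitm1, Ifitm3, Irgm1 and Parp14. Leaving out the _a_at, _s_at and _x_at probe sets called 3 listed genes lower, against 6, with fewer of them tested. Without 1 array, 7 to 10 listed genes were higher and 5 to 7 lower, their median was 0.03 to 0.09, and 2068 to 5814 genes were called in all. The same-numbered arrays of the groups share only a number (correlations of deviations 0.25, 0.31 and -0.30), and the replicate block called 4278 genes, 10 listed genes higher (Ifitm3 gained, adjusted p = 0.043) and 5 lower (Rsad2 lost, adjusted p = 0.0642). Levels below the array medians limit what can be read for Dhx58, Mx1 and Cmpk2.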

Other observations

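Samhd1, an interferon-inducible nucleotide hydrolase gene singled out after its values were seen, did not follow the groups. Its brightest probe set read 7.13, 6.97 and 6.92 in TNFαDes-/- hearts, against 7.11, 9.77 and 10.17 in Des-/- hearts. A second probe set read 6.98, 7.09 and 6.92 in TNFαDes-/- hearts, against 7.13, 9.49 and 10.03 in Des-/- hearts. On both, Des-/- replicate 1 lay with the TNFαDes-/- arrays and more than 2 log2 units below Des-/- replicates 2 and 3, and the log2 changes of -2.01 and -1.89 did not pass over all probe sets (limma adjusted p = 0.0845 and 0.0809). The 3 other Samhd1 probe sets gave 0.27, 0.01 and -0.01 and showed no such split.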
